A study of Mus musculus with 12 samples.

Results

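The genes described here are 47 genes of DNA replication and cell division, measured in mouse skin with psoriasis-like inflammation. They were taken by gene symbol from a named list, not by their values: 19 act in S phase, when DNA is copied (the S-phase members), and 28 act in mitosis or in its preparation (the mitotic members). All 47 were found among the 33539 genes of the count table, and all 47 were among the 18147 genes that had enough counts to be tested. The smallest count of any member in any library was 77, so none of the values below rests on a handful of reads.

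The study sequenced polyadenylated RNA in 12 skin libraries. The Tcn2-/- IMQ group (4 libraries) came from Tcn2-deficient mice whose skin was treated with imiquimod (IMQ), a Toll-like receptor agonist that gives a psoriasis-like inflammation. The IMQ group (5 libraries) had the same treatment, and the study's design text calls these mice wild type, while the control group (3 libraries) is labelled wild type with no treatment named. Tcn2 encodes transcobalamin, which carries vitamin B12 to cells. Strain, age, dose, days of treatment and the way Tcn2 was inactivated are not stated in the labels. Nor do the labels say whether the replicates are separate animals, so p-values measure the spread between these libraries only, part of which may be technical.

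A dividing cell passes through a fixed order of transcription. In late G1 the E2F factors switch on genes whose products load the MCM helicase on origins, copy the DNA and make nucleotides. Later, FOXM1 and the B-MYB complex switch on the cyclins, kinases and motor proteins of mitosis. In skin the cells that divide are mainly basal keratinocytes, hair matrix cells and sebaceous progenitors, and a thickened psoriatic epidermis is known for a larger dividing basal compartment. In RNA from whole tissue, fewer dividing cells and less RNA per dividing cell cannot be told apart.

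Elements known from the promoters of such genes are shown in 4 windows, chosen because they hold them. The windows are the 150 bases before the annotated start, 5′ to 3′ on the gene's strand, from RefSeq (GRCm38.p6, an older build than the one used for the counts). In the S-phase genes Rrm1 (chr7:102441545-102441694, plus strand) and E2f7 (chr10:110745289-110745438, plus strand), capitals mark the E2F-type element.
Rrm1: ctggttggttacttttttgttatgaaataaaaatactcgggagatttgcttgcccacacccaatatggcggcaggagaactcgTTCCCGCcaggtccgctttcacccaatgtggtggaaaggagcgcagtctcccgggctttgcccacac
E2f7: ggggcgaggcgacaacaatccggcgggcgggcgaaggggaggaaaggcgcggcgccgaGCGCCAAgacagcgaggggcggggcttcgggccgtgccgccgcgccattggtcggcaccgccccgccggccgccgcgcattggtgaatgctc
In the mitotic genes Cdk1 (chr10:69352913-69353062, minus strand) and Cdc20 (chr4:118437344-118437493, minus strand), capitals mark CCAAT, the element bound by NF-Y, and TTTGAA, the cell cycle homology element. ATTGG is CCAAT read on the other strand.
Cdk1: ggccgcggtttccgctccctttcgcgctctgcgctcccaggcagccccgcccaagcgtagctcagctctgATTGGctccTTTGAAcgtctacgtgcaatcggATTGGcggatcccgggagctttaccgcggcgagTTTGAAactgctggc
Cdc20: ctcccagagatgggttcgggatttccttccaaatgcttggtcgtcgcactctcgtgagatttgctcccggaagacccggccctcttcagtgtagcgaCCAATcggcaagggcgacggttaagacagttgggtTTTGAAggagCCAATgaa
A window was held for 38 members, 15 S-phase and 23 mitotic, and for 27025 genes in all. The E2F-type element, searched on both strands as TTCCCGC, or as the variant TTCGCGC, or as the variant TTGCCGC, or as the variant TTGGCGC, was in the windows of 6 S-phase members (40%) and 3 mitotic members (13%), against 5.54% of all windows. CCAAT was in 19 mitotic windows (82.6%) and 10 S-phase windows (66.7%), against 25.3% of all. TTTGAA was in 7 mitotic windows (30.4%) and 2 S-phase windows (13.3%), against 9.24% of all. The window of Cdk1 also held an E2F-type element 130 bases before the start, and those of Rrm1 and E2f7 held CCAAT, none of it in capitals above. In 7 of the 38 windows (Ccne1, Cdt1, E2f1, Anln, Birc5, Mybl2 and Nusap1) none of these letters was found. A match describes the letters of the window and shows no binding.

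Several libraries stood apart from the rest of their group before any gene was compared. Total counts per library were alike, between 16182324 and 18503487. Tcn2 was low in every library labelled Tcn2-/-: it had 5.59, 1.91, 5.44 and 4.14 CPM there (counts scaled to the library's size), against 90.3, 67.03, 137, 130.1 and 141 CPM in the IMQ libraries, and 19.9, 75.9 and 85.9 CPM in the controls. The titles carry the word muscle although tissue and source are given as skin. Keratinocyte markers were present throughout (Krt14, a basal keratin, at 1267 CPM or more in every library), and so were markers of skeletal muscle, with a mean log2 CPM of 7.75 to 9.82 in Tcn2-/- IMQ skin, 6.23 to 7.64 in IMQ skin and 8.22 to 8.53 in control skin. Control 1 had the lowest Tcn2 of its group, 10.3% mitochondrial counts and Y-linked reads. Xist, which is transcribed from the inactive X of female cells, was at 1082 CPM in IMQ 1 and at 1471 and 1374 CPM in controls 2 and 3, and at most at 0.485 CPM in the other libraries. Stress keratins summed to 1452 and 1439 CPM in Tcn2-/- IMQ 1 and 2, against 18534 and 14067 CPM in Tcn2-/- IMQ 3 and 4 and 5367 to 13063 CPM in IMQ skin.

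Averaged over each class, levels of the cell cycle genes ranged more widely inside each group than between the group means. The mean log2 CPM of the mitotic members averaged 5.42 ± 0.61 in Tcn2-/- IMQ skin (SD, n = 4), 5.09 ± 0.35 in IMQ skin (n = 5) and 4.73 ± 0.80 in control skin (n = 3), and that of the S-phase members 5.01 ± 0.44, 4.72 ± 0.23 and 4.55 ± 0.63 in the same groups. Together the members took 0.161% to 0.428% of the counts in Tcn2-/- IMQ skin, 0.148% to 0.253% in IMQ skin and 0.128% to 0.317% in control skin. Tcn2-/- IMQ 2 held the highest level of all 12 libraries for 35 of the 47 members, 13 S-phase and 22 mitotic. Control 1 was the highest control for all 47, at 1.30 to 4.75 times the mean of the other controls (median 2.39). The lowest of the 12 values was in control 2 for 27 members and in control 3 for 16.

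**Figure D1:**
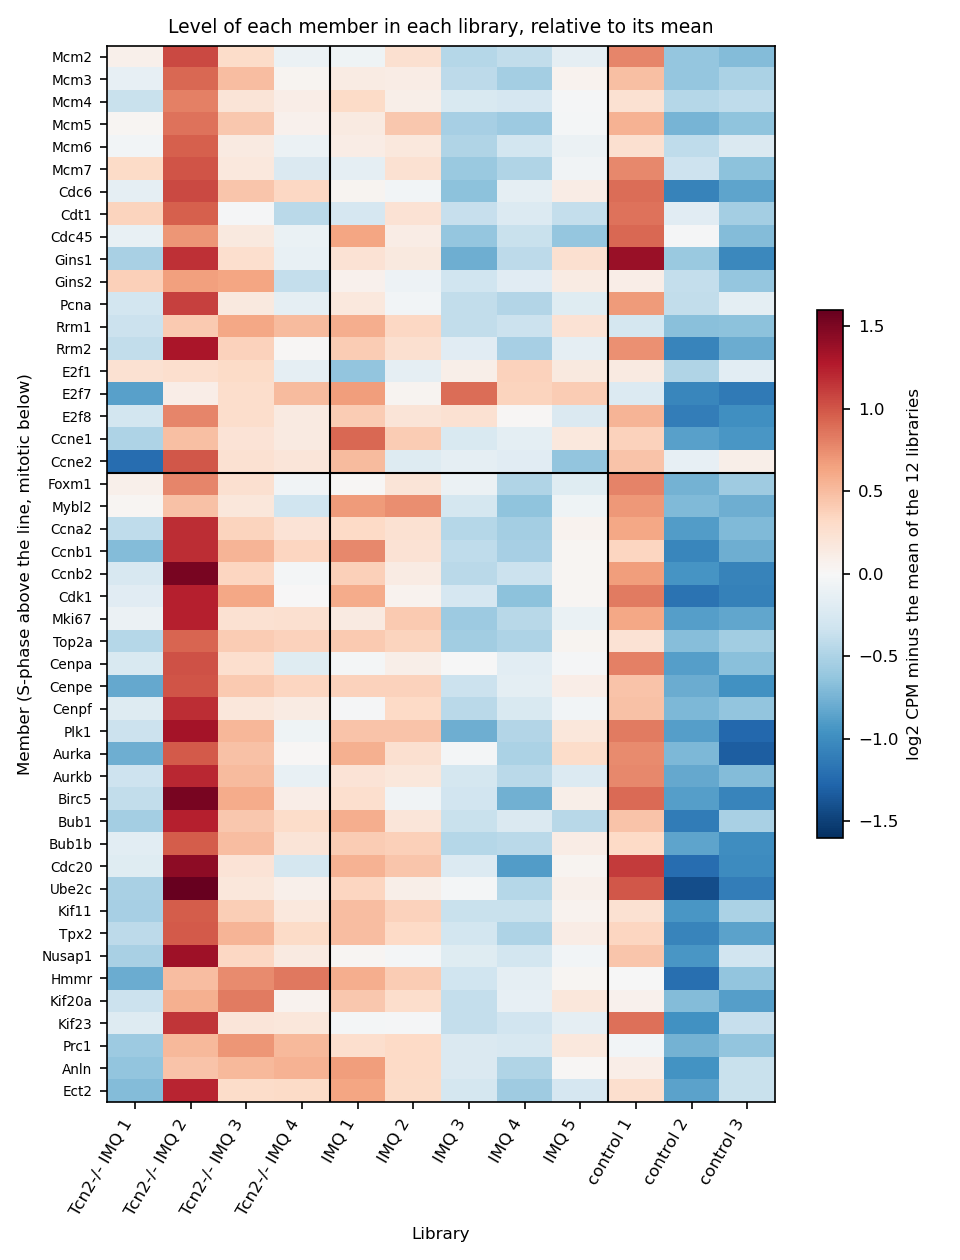
Log2 CPM of each of the 47 members (rows) in each of the 12 libraries (columns), minus the member's mean over the 12 libraries. Red columns run through both classes in Tcn2-/- IMQ 2 and control 1, and blue columns in controls 2 and 3, whose values were the lowest of all libraries for 27 and 16 members.

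Over the mitotic members the mean log2 CPM was 4.71, 6.18, 5.53 and 5.27 in Tcn2-/- IMQ skin, in replicate order. It was 5.49, 5.38, 4.79, 4.69 and 5.12 in IMQ skin, and 5.65, 4.20 and 4.35 in control skin. Over the S-phase members it was 4.57, 5.59, 5.07 and 4.79 in Tcn2-/- IMQ skin, 4.99, 4.91, 4.48, 4.52 and 4.72 in IMQ skin, and 5.28, 4.19 and 4.17 in control skin. Both classes thus put Tcn2-/- IMQ 2 first, control 1 second and controls 2 and 3 last. Inside the Tcn2-/- IMQ group replicate 2 was the highest for 40 members, at 1.02 to 3.496 times the mean of its group's other libraries over all 47 (median 1.93), and replicate 1 the lowest for 38. Inside the IMQ group replicate 1 was the highest for 29 members and replicate 2 for 13, while replicates 3 and 4 were the lowest for 19 and 21.

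No member passed the test in any comparison. A gene was called at an adjusted p below 0.05 (edgeR's quasi-likelihood test, Benjamini-Hochberg adjustment over the 18147 genes tested). Between Tcn2-/- IMQ and IMQ skin 0 of 47 members were called, where 5 of all genes tested (0.0276%) were. Between Tcn2-/- IMQ and control skin 0 were called, beside 1.31% of all genes tested, and in IMQ against control skin 0, beside 1.23%. At an unadjusted p below 0.05, the first of these comparisons had 0 members higher (5.67% of all genes) and the next had 6 higher: Rrm1, Gins2, E2f7, Prc1, Hmmr and Kif20a (12.8% of the members, 5.98% of all genes). In IMQ against control skin 2 members were higher, Rrm1 and E2f7 (4.26% of the members, 7.48% of all genes). No member was lower at that level in any of the 3, beside 6.16%, 6.78% and 8.11% of all genes. DESeq2 called 0, 0 and 1 members, beside 3.32%, 5.8% and 6.22% of the genes it tested; the 1 member was E2f7 in IMQ against control skin. Over genes at large, the edgeR test had little power for 2-fold changes, and the median changes over the members, given below, were smaller than that. Changes below 2-fold were not simulated. Of 50 simulated 2-fold changes in each comparison the edgeR test recovered 8%, 2% and 2%, and of 50 4-fold changes 58%, 54% and 46%. The changed genes were drawn at random from all genes tested, so these rates are not those of the members alone.

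The fitted changes themselves were mostly positive and small. For Tcn2-/- IMQ against IMQ skin the log2 change was positive for 44 of 47 members (50.8% of all genes), with a median of 0.40 over the S-phase members and 0.40 over the mitotic members, where the median of all genes was 0.01. For Tcn2-/- IMQ against control skin it was positive for 46 (51% of all genes), with medians of 0.42 and 0.67. In IMQ against control skin it was positive for 35 (49.6% of all genes), with medians of 0.02 and 0.22. Most members were high or low in the same libraries, so these counts do not stand for 47 independent observations. The comparisons also share libraries: both treated groups are set against the same 3 controls.

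**Figure D2:**
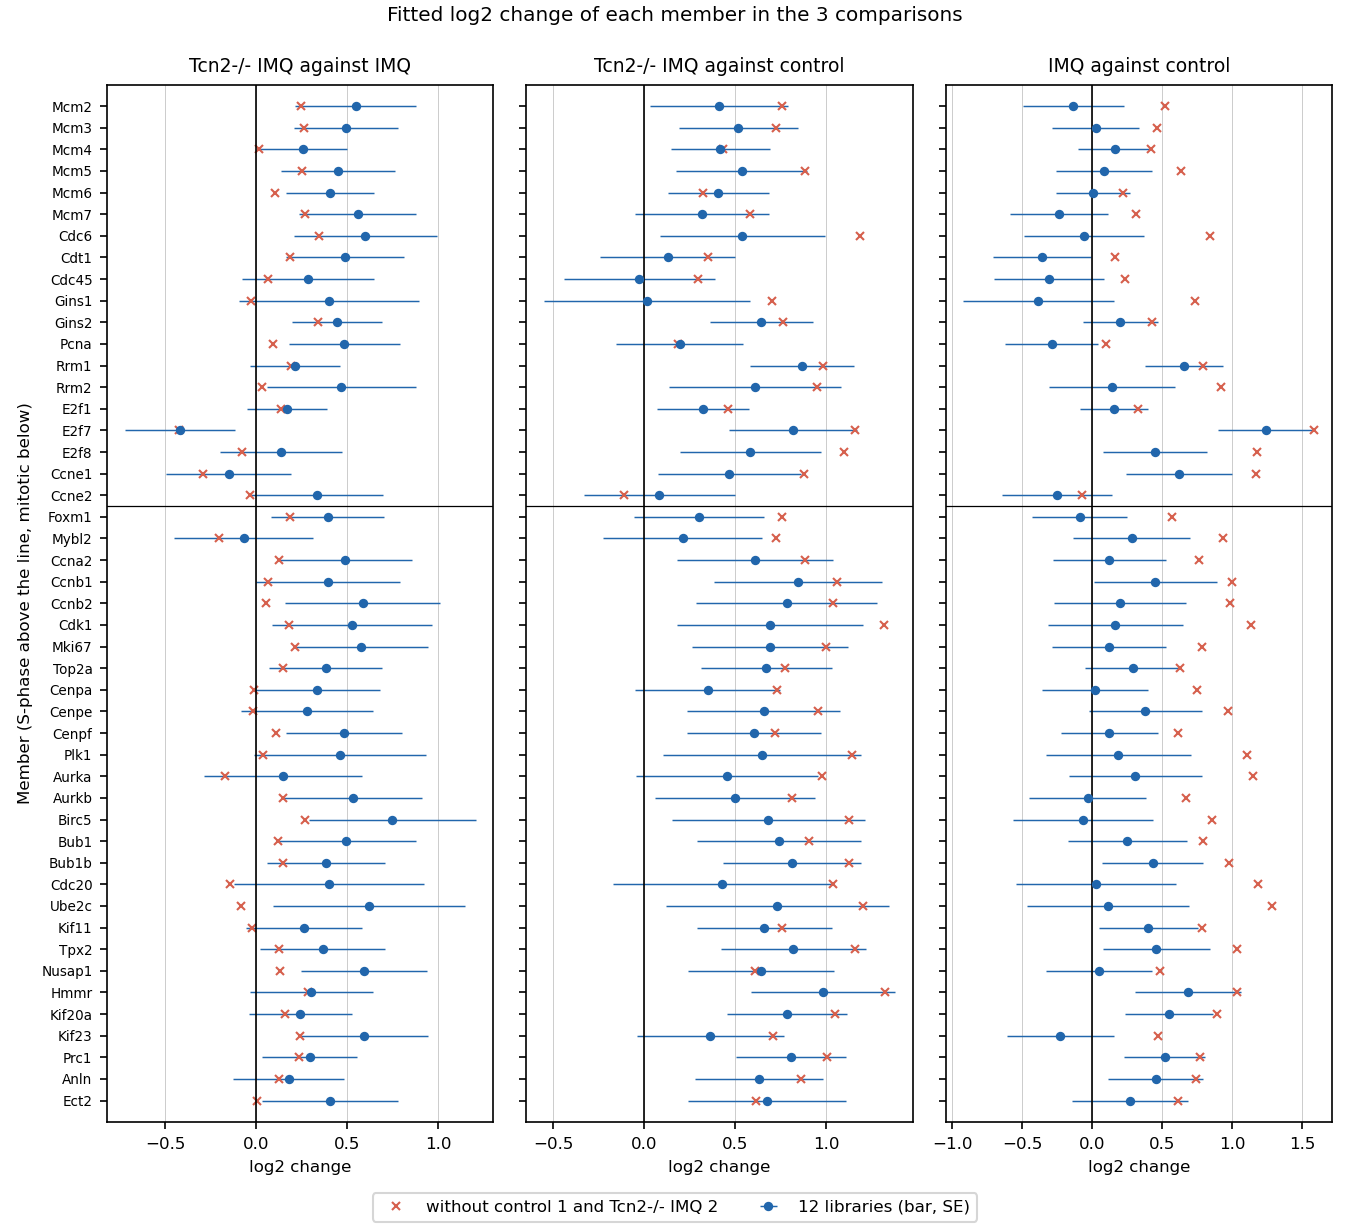
Fitted log2 change of each member (rows) in the 3 comparisons (panels), with its standard error as a bar, beside the change when control 1 and Tcn2-/- IMQ 2 are left out (crosses). In the fits of all 12 libraries the bars of most members in IMQ against control skin reach across 0, and the crosses of that panel lie to the right of the circles.

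Among the S-phase members, the licensing genes come first in the order of events. Mcm2, Mcm3 and Mcm5 encode subunits of the MCM helicase, and Cdc6, with Cdt1, loads it on origins. Mcm2 had 43.4, 84.9, 50.2 and 38.3 CPM in Tcn2-/- IMQ skin, 39.04, 48.6, 29.8, 31.2 and 37.01 CPM in IMQ skin, and 70.4, 26.6 and 25.3 CPM in control skin. Mcm5 had 49.5, 87.96, 65.04 and 50.9 CPM in Tcn2-/- IMQ skin, 53.6, 65.3, 33.6, 32.2 and 47.2 CPM in IMQ skin, and 71.3, 28.9 and 30.8 CPM in control skin. For both genes Tcn2-/- IMQ 2 was highest and control 1 next, and controls 2 and 3 were below every other library. Mcm3 had 40.2, 83.6, 62.3 and 45.5 CPM in Tcn2-/- IMQ skin, 48.4, 48.1, 32.96, 30.3 and 45.8 CPM in IMQ skin, and 61.6, 28.8 and 31.01 CPM in control skin. Cdc6 had 8.97, 20.6, 13.5 and 12.5 CPM in Tcn2-/- IMQ skin, 10.2, 9.63, 6.300, 8.98 and 10.7 CPM in IMQ skin, and 18.4, 4.72 and 5.51 CPM in control skin. Cdc6 repeated the order at the top and the bottom, whereas for Mcm3 the value of Tcn2-/- IMQ 3 was slightly above control 1 and that of IMQ 4 below control 3. The groups overlapped for all of them in every comparison. The log2 change in Tcn2-/- IMQ against IMQ skin was 0.60 (SE 0.393, adjusted p = 0.577) for Cdc6, 0.55 (SE 0.33, adjusted p = 0.541) for Mcm2 and 0.49 (SE 0.284, adjusted p = 0.518) for Mcm3, all by edgeR's quasi-likelihood test. The remaining licensing genes followed: Mcm4 lay between 90.8 CPM in Tcn2-/- IMQ 2 and 37.9 CPM in control 2, Mcm6 between 157 CPM in Tcn2-/- IMQ 2 and 58.2 CPM in IMQ 3, Mcm7 between 108 CPM in Tcn2-/- IMQ 2 and 34.02 CPM in control 3 and Cdt1 between 37.6 CPM in Tcn2-/- IMQ 2 and 13.3 CPM in control 3. Over the 8 licensing genes the log2 change was 0.26 to 0.60 in Tcn2-/- IMQ against IMQ skin, 0.13 to 0.54 in Tcn2-/- IMQ against control skin and −0.36 to 0.16 in IMQ against control skin.

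The 4 replisome genes had log2 changes of 0.28 to 0.48 in Tcn2-/- IMQ against IMQ skin, −0.03 to 0.64 in Tcn2-/- IMQ against control skin and −0.38 to 0.20 in IMQ against control skin. Pcna, the sliding clamp of the DNA polymerases, had 106, 277, 145 and 117 CPM in Tcn2-/- IMQ skin, 146, 125, 98.6, 93.5 and 113 CPM in IMQ skin, and 207, 99.1 and 116 CPM in control skin. Tcn2-/- IMQ 2 and control 1 were the highest libraries, and controls 2 and 3 lay inside the range of the IMQ libraries. Gins2, a subunit of the GINS complex that activates the helicase, had 13.3, 16.1, 15.8 and 7.82 CPM in Tcn2-/- IMQ skin, 10.7, 9.63, 8.18, 8.98 and 11.2 CPM in IMQ skin, and 10.9, 7.81 and 6.64 CPM in control skin. Replicates 1, 2 and 3 of Tcn2-/- IMQ lay above every IMQ and control library, and Tcn2-/- IMQ 4 lay at the level of control 2. Gins2 had the smallest p of the S-phase members in Tcn2-/- IMQ against IMQ skin, with a log2 change of 0.44 (SE 0.246, adjusted p = 0.503); its locus shares 2758 bases with Gse1 on the other strand, and the sources used here do not say whether reads were counted by strand. Gins1 lay between 23.4 CPM in control 1 and 4.37 CPM in control 3, and Cdc45, which joins GINS and MCM in the active helicase, between 23.9 CPM in control 1 and 7.84 CPM in control 3. Both were highest in control 1.

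Ribonucleotide reductase, which makes the deoxynucleotides for replication, is built from the products of Rrm1 (large subunit) and Rrm2 (small subunit). Rrm1 (ENSMUSG00000030978, chromosome 7, 102090902 to 102118978, plus strand, GRCm39) had 88.4, 150.1, 173 and 161 CPM in Tcn2-/- IMQ skin, 169, 142, 85.7, 88.5 and 132 CPM in IMQ skin, and 92.6, 70.99 and 71.4 CPM in control skin. Replicates 2, 3 and 4 of Tcn2-/- IMQ and 1, 2 and 5 of IMQ lay above every control, whereas Tcn2-/- IMQ 1, IMQ 3 and IMQ 4 lay between the controls. Here control 1 stood out least, at 1.30 times the mean of the other controls. Rrm1 averaged 143 ± 37.6 CPM in Tcn2-/- IMQ skin (SD, n = 4), 123 ± 35.8 CPM in IMQ skin (SD, n = 5) and 78.3 ± 12.4 CPM in control skin (SD, n = 3). Its log2 change was 0.87 (SE 0.288, adjusted p = 0.188) in Tcn2-/- IMQ against control skin and 0.65 (SE 0.276, adjusted p = 0.279) in IMQ against control skin (edgeR). Rrm2 had 32.9, 107, 55.6 and 43.8 CPM in Tcn2-/- IMQ skin, 57.2, 51.5, 38.2, 29.8 and 39.2 CPM in IMQ skin, and 71.7, 20.7 and 24.99 CPM in control skin. Its 2 highest libraries were again Tcn2-/- IMQ 2 and control 1, and its log2 change was 0.61 (SE 0.474, adjusted p = 0.664) in Tcn2-/- IMQ against control skin.

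The E2F factors and E cyclins act where a cell commits to S phase, and E2f7 gave the clearest separation of groups. E2f7 (ENSMUSG00000020185, chromosome 10, 110581300 to 110623245, plus strand, GRCm39) encodes an atypical E2F that represses E2F target genes. It had 6.299, 12.4, 13.97 and 16.3 CPM in Tcn2-/- IMQ skin, 18.4, 11.9, 21.5, 14.8 and 15.3 CPM in IMQ skin, and 9.899, 5.62 and 5.28 CPM in control skin. Every IMQ library was above every control, and Tcn2-/- IMQ 1 was the only treated library inside the control range. It was the 1 member without overlap in that comparison (2.13% of the members, 6.79% of all genes tested). E2f7 averaged 12.2 ± 4.29 CPM in Tcn2-/- IMQ skin (SD, n = 4), 16.4 ± 3.66 CPM in IMQ skin (SD, n = 5) and 6.93 ± 2.57 CPM in control skin (SD, n = 3), and the log2 change was 1.24 (SE 0.344, adjusted p = 0.11) in IMQ against control skin by edgeR. DESeq2 gave 1.26 (SE 0.352, adjusted p = 0.0107) for the same comparison. Against control, the Tcn2-/- IMQ libraries differed by 0.82 (SE 0.351, adjusted p = 0.344), and against IMQ by −0.42 (SE 0.303, adjusted p = 0.608), so E2f7 was among the 3 members with a negative change there. Where the Tcn2-/- IMQ group was set against IMQ or control skin, no member of either class was free of overlap on the higher side (1.71% and 4.67% of all genes tested).

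The other genes of this step did not separate the groups. E2f8, the close relative of E2f7, lay between 31.3 CPM in Tcn2-/- IMQ 2 and 8.48 CPM in control 2. E2f1, an activator of S-phase genes, had 21.5, 21.9, 22.4 and 16.5 CPM in Tcn2-/- IMQ skin, 11.7, 16.5, 19.5, 23.5 and 20.3 CPM in IMQ skin, and 20.1, 13.03 and 16.2 CPM in control skin. IMQ 4 was its highest library and IMQ 1 its lowest, and control 1 and Tcn2-/- IMQ 2 did not stand out. Ccne1, cyclin E1, the partner of CDK2 at S-phase entry, had 6.89, 13.5, 11.3 and 10.7 CPM in Tcn2-/- IMQ skin, 18.3, 12.8, 8.18, 8.67 and 10.9 CPM in IMQ skin, and 12.5, 5.34 and 5.11 CPM in control skin. IMQ 1 was highest and controls 2 and 3 lowest; the log2 change in IMQ against control skin was 0.62 (SE 0.38, adjusted p = 0.459). Ccne2, cyclin E2, lay between 34.8 CPM in Tcn2-/- IMQ 2 and 7.55 CPM in Tcn2-/- IMQ 1; its locus shares 5622 bases with Ints8 on the other strand.

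**Figure D3:**
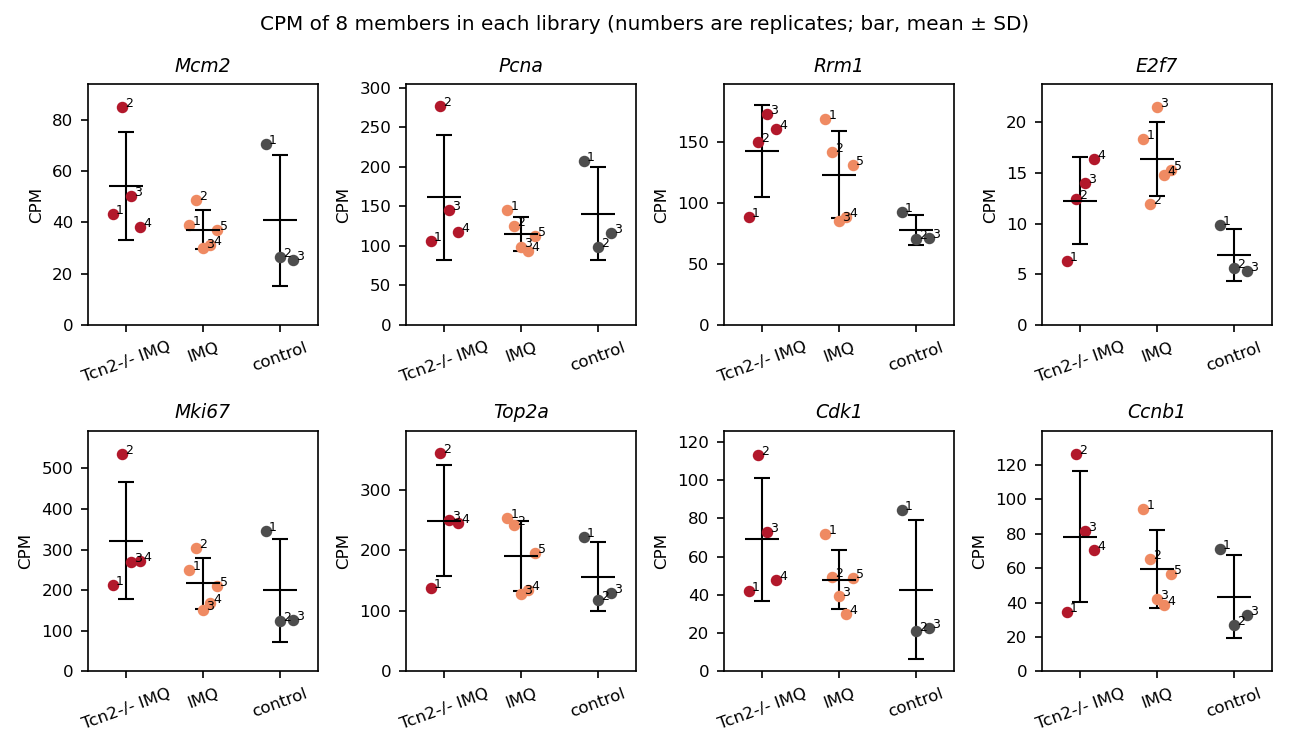
CPM of 4 S-phase members (Mcm2, Pcna, Rrm1, E2f7) and 4 mitotic members (Mki67, Top2a, Cdk1, Ccnb1) in each library, with the mean and SD of each group; the number beside a point is its replicate. In 7 of the 8 panels the groups overlap in every comparison, and in the E2f7 panel the IMQ libraries (11.9 to 21.5 CPM) lie above the controls (5.28 to 9.90 CPM).

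The mitotic members begin with their regulators. Foxm1, the transcription factor of G2 and mitotic genes, had 25.6, 41.7, 28.9 and 23.2 CPM in Tcn2-/- IMQ skin, 24.6, 27.9, 22.7, 17.3 and 21.1 CPM in IMQ skin, and 42.02, 14.3 and 16.3 CPM in control skin. Control 1 and Tcn2-/- IMQ 2 were alike and highest, and controls 2 and 3 were below all other libraries. Mybl2, which encodes B-MYB, lay between 15.1 CPM in IMQ 2 and 5.22 CPM in control 3, and was the only mitotic member with a negative change in Tcn2-/- IMQ against IMQ skin (−0.07 (SE 0.382, adjusted p = 0.958)). Cdk1, the kinase that drives entry into mitosis, had 42.1, 113, 72.8 and 47.7 CPM in Tcn2-/- IMQ skin, 71.5, 49.3, 39.4, 30.1 and 48.8 CPM in IMQ skin, and 84.5, 20.95 and 22.5 CPM in control skin. Ccnb1, cyclin B1, its activating subunit, had 34.3, 126, 81.5 and 70.7 CPM in Tcn2-/- IMQ skin, 94.5, 65.6, 41.9, 38.6 and 56.9 CPM in IMQ skin, and 71.00, 27.1 and 32.5 CPM in control skin. For both genes the highest library was Tcn2-/- IMQ 2 and the lowest were controls 2 and 3; control 1 was second for Cdk1, and IMQ 1 for Ccnb1. The log2 change in Tcn2-/- IMQ against control skin was 0.69 (SE 0.511, adjusted p = 0.644) for Cdk1 and 0.85 (SE 0.463, adjusted p = 0.5) for Ccnb1. Ccna2, cyclin A2, lay between 105 CPM in Tcn2-/- IMQ 2 and 24.9 CPM in control 2, and Ccnb2, cyclin B2, between 76.7 CPM in Tcn2-/- IMQ 2 and 12.8 CPM in control 3. Processed copies with their own rows had few counts, at most 19 for Ccnb1-ps and 69 for Ccnb2-ps in any library. The 4 genes of mitotic cyclins and Cdk1 had log2 changes of 0.40 to 0.59 in Tcn2-/- IMQ against IMQ skin, 0.61 to 0.85 in Tcn2-/- IMQ against control skin and 0.12 to 0.45 in IMQ against control skin.

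Proteins of mitotic chromosomes include the marker most used for proliferation. Mki67, which encodes the Ki-67 protein that coats mitotic chromosomes, had 213, 536, 269.6 and 272 CPM in Tcn2-/- IMQ skin, 251, 303, 152, 167 and 210.3 CPM in IMQ skin, and 347, 124 and 128 CPM in control skin. Tcn2-/- IMQ 2 was well above all others and control 1 was second, while controls 2 and 3 were lowest. Mki67 averaged 323 ± 145 CPM in Tcn2-/- IMQ skin (SD, n = 4), 217 ± 61.8 CPM in IMQ skin (SD, n = 5) and 199.5 ± 128 CPM in control skin (SD, n = 3), with a log2 change of 0.57 (SE 0.368, adjusted p = 0.566) in Tcn2-/- IMQ against IMQ skin and 0.69 (SE 0.428, adjusted p = 0.567) against control. Top2a, the topoisomerase that untangles sister chromatids, had 138, 361, 250.2 and 245 CPM in Tcn2-/- IMQ skin, 253, 242, 128, 134 and 196 CPM in IMQ skin, and 222, 118 and 129 CPM in control skin. Its order was the same at the top except that IMQ 1, Tcn2-/- IMQ 3, Tcn2-/- IMQ 4 and IMQ 2 lay above control 1. The centromere gene Cenpa lay between 75.99 CPM in Tcn2-/- IMQ 2 and 20.4 CPM in control 2, the kinetochore motor gene Cenpe between 78.6 CPM in Tcn2-/- IMQ 2 and 19.99 CPM in control 3 and the kinetochore gene Cenpf between 91.5 CPM in Tcn2-/- IMQ 2 and 24.6 CPM in control 2.

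Kinases, the spindle checkpoint and the anaphase-promoting complex (APC/C) followed the same libraries. Cdc20, the activator of the APC/C at anaphase, had 26.4, 81.9, 35.2 and 24.9 CPM in Tcn2-/- IMQ skin, 44.6, 41.4, 25.99, 16.3 and 31.2 CPM in IMQ skin, and 65.7, 12.97 and 15.1 CPM in control skin. Birc5, survivin, a subunit of the chromosomal passenger complex with Aurora B, had 18.1, 68.4, 36.04 and 25.6 CPM in Tcn2-/- IMQ skin, 28.7, 22.9, 19.3, 13.95 and 25.4 CPM in IMQ skin, and 44.8, 12.9 and 11.4 CPM in control skin. In both genes Tcn2-/- IMQ 2 and control 1 were highest and controls 2 and 3 lowest. Birc5 had the largest positive log2 change of the members in Tcn2-/- IMQ against IMQ skin, 0.75 (SE 0.458, adjusted p = 0.547). Ube2c, the ubiquitin-conjugating enzyme of the APC/C, lay between 133 CPM in Tcn2-/- IMQ 2 and 14.8 CPM in control 2; control 1 was 4.75 times the mean of the other controls, the largest such ratio of the 47. Plk1 (Polo-like kinase) lay between 40.4 CPM in Tcn2-/- IMQ 2 and 6.701 CPM in control 3, Aurka (Aurora A) between 25.3 CPM in Tcn2-/- IMQ 2 and 5.17 CPM in control 3, and Aurkb (Aurora B) between 42.8 CPM in Tcn2-/- IMQ 2 and 10.5 CPM in control 2. The checkpoint genes Bub1 and Bub1b lay between 48.6 CPM in Tcn2-/- IMQ 2 and 9.44 CPM in control 2, and between 56.3 CPM in Tcn2-/- IMQ 2 and 14.4 CPM in control 3.

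Genes of the spindle and of cytokinesis gave the smallest p-values of the mitotic members. Hmmr (ENSMUSG00000020330, chromosome 11, 40592222 to 40624249, minus strand, GRCm39), a hyaluronan receptor that also acts in spindle assembly, had 16.4, 40.2, 48.3 and 50.99 CPM in Tcn2-/- IMQ skin, 42.5, 37.9, 22.9, 25.7 and 29.1 CPM in IMQ skin, and 28.3, 12.4 and 18.5 CPM in control skin. Tcn2-/- IMQ 4 and 3 were highest and control 2 lowest, followed by Tcn2-/- IMQ 1. Hmmr averaged 38.97 ± 15.7 CPM in Tcn2-/- IMQ skin (SD, n = 4), 31.6 ± 8.28 CPM in IMQ skin (SD, n = 5) and 19.7 ± 8.03 CPM in control skin (SD, n = 3), with a log2 change of 0.98 (SE 0.396, adjusted p = 0.305) in Tcn2-/- IMQ against control skin and 0.68 (SE 0.378, adjusted p = 0.41) in IMQ against control skin. Prc1 (ENSMUSG00000038943, chromosome 7, 79944198 to 79966007, plus strand, GRCm39), which bundles the microtubules of the spindle midzone, had 22.6, 48.8, 55.2 and 48.5 CPM in Tcn2-/- IMQ skin, 40.96, 42.1, 28.96, 28.4 and 38.1 CPM in IMQ skin, and 32.9, 20.2 and 21.8 CPM in control skin. Replicates 2, 3 and 4 of Tcn2-/- IMQ were above every other library and Tcn2-/- IMQ 1 was near controls 2 and 3. Its log2 change was 0.81 (SE 0.303, adjusted p = 0.256) in Tcn2-/- IMQ against control skin and 0.52 (SE 0.289, adjusted p = 0.416) in IMQ against control skin. The whole Prc1 locus (21810 shared bases) lies across Rccd1 on the other strand, which had 50 to 213 counts per library, so some reads could belong to either gene.

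Nusap1, a microtubule-binding protein of the spindle, had 25.2, 92.2, 45.2 and 39.7 CPM in Tcn2-/- IMQ skin, 36.6, 35.3, 31.5, 29.4 and 34.8 CPM in IMQ skin, and 49.1, 18.9 and 29.1 CPM in control skin. Kif23, a motor of the centralspindlin complex, had 25.9, 66.1, 34.1 and 33.95 CPM in Tcn2-/- IMQ skin, 29.1, 29.5, 22.96, 24.2 and 26.9 CPM in IMQ skin, and 54.9, 15.3 and 23.1 CPM in control skin. Tcn2-/- IMQ 2 and control 1 were highest for both, and the IMQ libraries lay close together. These were the mitotic members with the smallest p in Tcn2-/- IMQ against IMQ skin, with log2 changes of 0.59 (SE 0.345, adjusted p = 0.524) for Nusap1 and 0.59 (SE 0.352, adjusted p = 0.534) for Kif23. The spindle motor gene Kif11 lay between 122 CPM in Tcn2-/- IMQ 2 and 32.6 CPM in control 2, and Tpx2, an activator of Aurora A on the spindle, between 86.4 CPM in Tcn2-/- IMQ 2 and 20.9 CPM in control 2. Of the cytokinesis genes, Kif20a (a midzone motor) lay between 34.2 CPM in Tcn2-/- IMQ 3 and 10.4 CPM in control 3, Anln (anillin, of the contractile ring) between 92.01 CPM in IMQ 1 and 29.99 CPM in control 2 and Ect2 (the activator of RhoA in cytokinesis) between 69.9 CPM in Tcn2-/- IMQ 2 and 16.6 CPM in control 2. Ube2c and Kif20a also overlap genes on the other strand, Tnnc2 (1662 bases, 0 to 3 counts per library) and Cdc23 (2327 bases, 511 to 789 counts).

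The distance of the treated groups from control depended on control 1. Without it the medians of the log2 change over the S-phase and mitotic members were 0.96 and 1.25 in Tcn2-/- IMQ against control skin, and 0.45 and 0.82 in IMQ against control skin. At an unadjusted p below 0.05 then stood 39 members in Tcn2-/- IMQ against control skin (13 S-phase and 26 mitotic, 83% of the members, against 8.26% of all genes) and 18 in IMQ against control skin (5 S-phase and 13 mitotic, 38.3%, against 5.94%). Of the 47, 35 members of the Tcn2-/- IMQ group were free of overlap with the other 2 controls (13% of all genes), and 34 of the IMQ group (11.6% of all genes), 10 S-phase and 24 mitotic. The comparison of Tcn2-/- IMQ with IMQ skin had 4 members at that level (6.82% of all genes) and 0 called (0.546%). After adjustment 1 member was called in Tcn2-/- IMQ against control skin, E2f8 with 1.32 (adjusted p = 0.0498, beside 2.41% of all genes), and 0 in IMQ against control skin (0.733%). Control 1 was the highest control for every member, so leaving it out had to raise the log2 changes against control. The counts without it describe the 2 remaining controls. Xist marks controls 2 and 3 as female, as it does IMQ 1 but no other treated library. Without control 1, sex and group therefore cannot be told apart in Tcn2-/- IMQ against control skin. In IMQ against control skin they are set apart only by IMQ 1.

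The distance of the Tcn2-/- IMQ group from the others depended on Tcn2-/- IMQ 2. This library was above the mean of its group's other libraries for all 47 members (1.02 times or more). Leaving it out therefore had to lower the changes of the Tcn2-/- IMQ group. Without it alone the medians in Tcn2-/- IMQ against control skin were 0.17 and 0.26. Without it and control 1 the medians over the S-phase and mitotic members were 0.10 and 0.12 in Tcn2-/- IMQ against IMQ skin, 0.72 and 0.96 in Tcn2-/- IMQ against control skin, and 0.46 and 0.82 in IMQ against control skin. No member was then higher at an unadjusted p below 0.05 in Tcn2-/- IMQ against IMQ skin (5.07% of all genes), and 0 were called (0.298%). Against control, 33 members were higher at that level in Tcn2-/- IMQ skin (8.33% of all genes) and 30 in IMQ skin (7.84%), 8 S-phase and 22 mitotic. E2f8 was called in IMQ against control skin, at 1.18 (adjusted p = 0.0496, beside 1.21% of all genes), and 0 members in Tcn2-/- IMQ against control skin (2.3%). The log2 change in Tcn2-/- IMQ against IMQ skin was then positive for 35 of 47 members; Ube2c turned to −0.08 and Cdc20 to −0.15. These 2 libraries were left out because earlier results of these data put them farthest out. The controls that remained were again controls 2 and 3, both marked as female by Xist, so the limit on sex given above holds here too.

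The mitotic class spread more than the S-phase class. The mitotic minus the S-phase mean log2 CPM was 0.14, 0.59, 0.46 and 0.48 in the Tcn2-/- IMQ libraries, 0.49, 0.47, 0.31, 0.17 and 0.40 in the IMQ libraries, and 0.37, 0.01 and 0.18 in the controls. It was lowest in controls 2 and 3, Tcn2-/- IMQ 1 and IMQ 4, which also had low levels of the mitotic members. The mitotic mean is itself a term of this difference, and the class that spread more, so part of that match is built in. These differences describe the libraries, and no test was made of them.

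Markers of other cells also differed between the libraries, and in some but not all of them they moved with the cell cycle genes. Over 18 measured genes of the hair matrix and hair shaft, where cells divide in growing follicles, the mean log2 CPM was 5.77 in Tcn2-/- IMQ 2, 8.35 in IMQ 2, 6.21 in IMQ 5 and 4.78 in control 1, against −0.71 to 1.001 in the other 8 libraries. Tcn2-/- IMQ 3 and IMQ 1, which ranked 3 and 4 of the 12 libraries in both classes of members, were among these 8, at 0.44 and −0.53, and IMQ 5 ranked 7 in both. Their summed level was 58.2 to 1806 CPM in Tcn2-/- IMQ skin, 71.3 to 15558 CPM in IMQ skin and 33.6 to 1664 CPM in control skin. The matrix factors Lef1 and Msx2 had 65.03 and 73.6 CPM in Tcn2-/- IMQ 2, 22.8 and 48.3 CPM in IMQ 2 and 77.3 and 77.5 CPM in control 1. Among the shaft keratins, Krt34 and Krt81 had no count in Tcn2-/- IMQ 1, Tcn2-/- IMQ 4, IMQ 1, IMQ 4 and control 2. Shh, a signal of the growing hair bulb chosen after its values were seen, had 61.7 CPM in Tcn2-/- IMQ 2 and 48.3 CPM in control 1, and at most 9.81 CPM elsewhere. Fibroblast markers were at 8.18 in Tcn2-/- IMQ 2 and 6.16 in control 1, each the lowest of its group. Macrophage markers summed to 365 and 136 CPM in these libraries. They summed to 1414 to 4701 CPM in the other Tcn2-/- IMQ libraries, 2612 and 4027 CPM in controls 2 and 3, and 2001 to 7644 CPM in IMQ skin. Mitochondrial counts were 8.08% in Tcn2-/- IMQ 2 and 10.3% in control 1. Tcn2-/- IMQ 3, by contrast, had fibroblast markers at 9.95 and macrophage markers at 4701 CPM. The 14 markers of basal keratinocytes had a mean log2 CPM of 7.55 in Tcn2-/- IMQ 2, the lowest of its group (7.79 or more in the others), and of 7.86 in control 1, the highest of its group. Sebaceous markers were at 7.86 in Tcn2-/- IMQ 2, inside the range of its group (4.49 to 8.06 in the others), and at 7.63 in control 1, the lowest of its group. With the hair score as a covariate the medians over S-phase and mitotic members were 0.51 and 0.49 in Tcn2-/- IMQ against IMQ skin, 0.45 and 0.68 in Tcn2-/- IMQ against control skin, and −0.07 and 0.19 in IMQ against control skin, and no member was called. With the muscle score, which itself differed between the groups, they were 0.76 and 1.09, 0.49 and 0.75, and −0.27 and −0.35. The changes in IMQ against control skin of Hmmr, Rrm1, Ccne1 and Prc1 then became −0.21, −0.0178, −0.0407 and −0.12. With the sex of the library as a covariate the medians were 0.35 and 0.34, 0.34 and 0.47, and −0.05 and 0.19, and no member was called. Control 1 was the only control not marked as female by Xist, so among the controls this covariate cannot be told apart from that library. The part of the other markers and of mitochondrial counts in these levels was not tested.

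**Figure D4:**
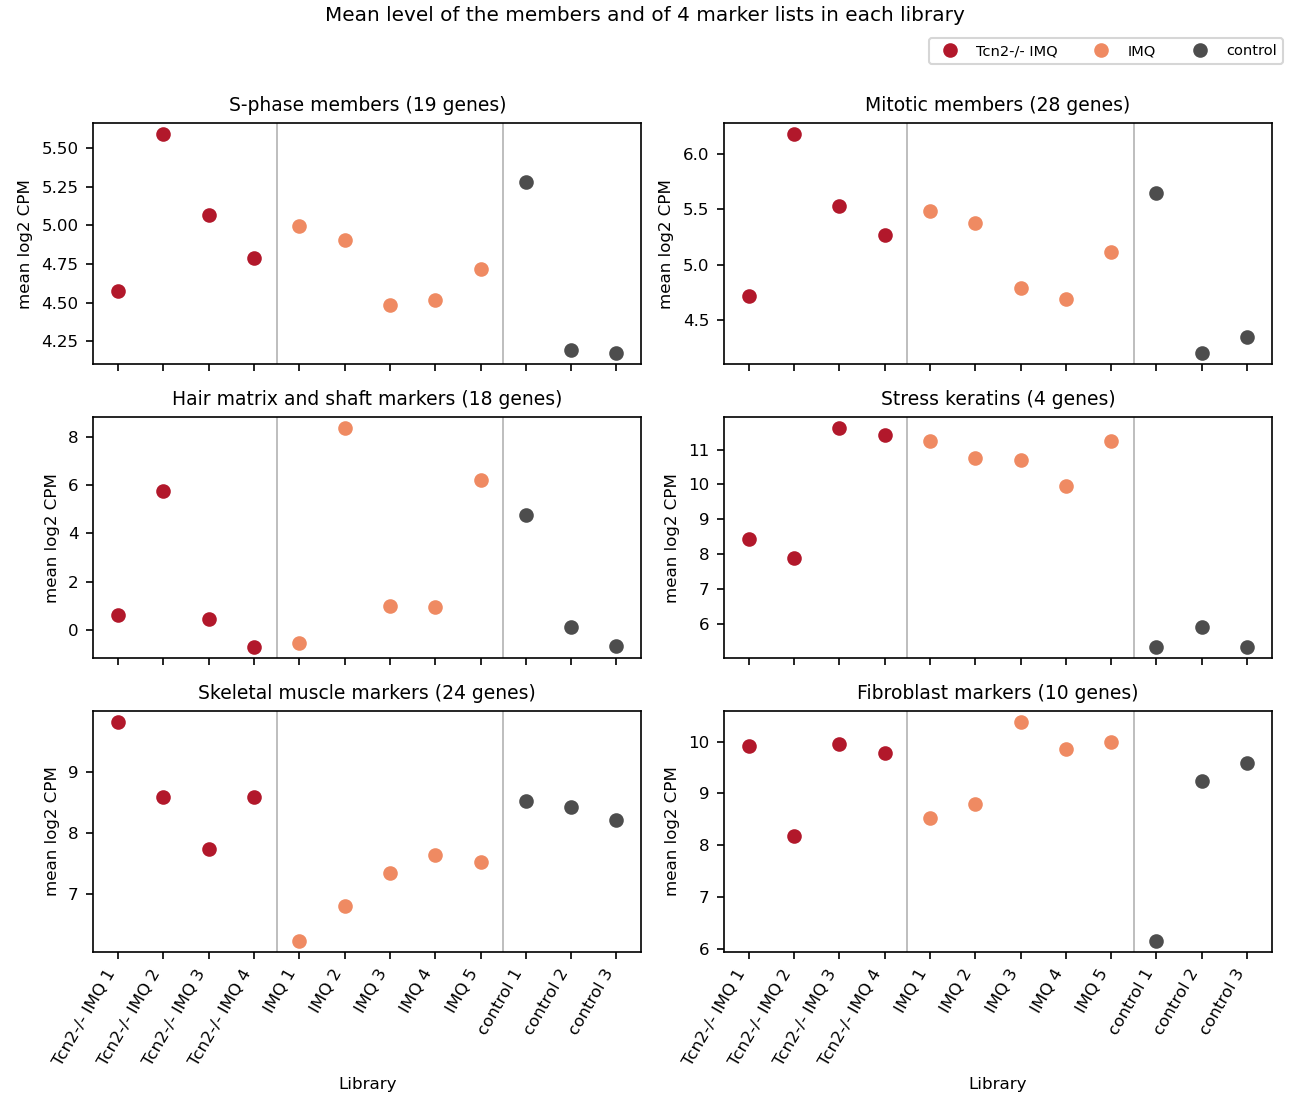
Mean log2 CPM of the S-phase members, the mitotic members and 4 marker lists in each library, with the number of measured genes in each panel title. Tcn2-/- IMQ 2 and control 1 are highest in both member panels (6.18 and 5.65 for the mitotic members), high in the hair panel and lowest of their groups in the fibroblast panel; IMQ 2 is highest in the hair panel.

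Other genes of replication and mitosis also had mostly positive changes where the Tcn2-/- IMQ group was compared, and their medians were smaller without Tcn2-/- IMQ 2. No gene of the 4 further lists was called in any comparison, beside 0.0276%, 1.31% and 1.23% of all genes tested. A positive change was seen for 50.8%, 51% and 49.6% of all genes, in the same order of comparisons. As for the members, the counts below do not stand for independent observations. Of 46 other replication genes, 45 had a positive log2 change in Tcn2-/- IMQ against IMQ skin (median 0.48), 40 in Tcn2-/- IMQ against control skin (0.32) and 14 in IMQ against control skin (−0.17). Their level was highest in Tcn2-/- IMQ 2, a mean log2 CPM of 5.18 beside 4.14 to 4.503 in the others of its group, and without it 37 were positive in Tcn2-/- IMQ against IMQ skin (median 0.14) and 24 in Tcn2-/- IMQ against control skin (0.00913). Pola1, the catalytic subunit of DNA polymerase alpha, was at 0.40 (SE 0.160, adjusted p = 0.357) in Tcn2-/- IMQ against IMQ skin and at 0.59 (SE 0.186, adjusted p = 0.165) in Tcn2-/- IMQ against control skin. Pold2, a subunit of polymerase delta, was at 0.61 (SE 0.242, adjusted p = 0.356) in Tcn2-/- IMQ against IMQ skin. Prim2, a primase subunit, was at 0.71 (adjusted p = 0.182) in Tcn2-/- IMQ against control skin and at 0.46 (adjusted p = 0.336) in IMQ against control skin. Cdc7, the kinase that fires origins, was at −0.67 (adjusted p = 0.401) in IMQ against control skin.

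Of 56 other mitosis genes, 56 had a positive change in Tcn2-/- IMQ against IMQ skin (median 0.37), 54 in Tcn2-/- IMQ against control skin (0.54) and 40 in IMQ against control skin (0.13). These genes too were highest in Tcn2-/- IMQ 2 (5.47, beside 3.97 to 4.64 in the others of its group), and without it 34 were positive in Tcn2-/- IMQ against IMQ skin (median 0.0352) and 41 in Tcn2-/- IMQ against control skin (0.17). The smallest p-values were those of Esco2, a cohesin acetyltransferase (0.82, adjusted p = 0.467), and Kif15, a spindle motor (0.66, adjusted p = 0.473), in Tcn2-/- IMQ against IMQ skin. They were those of the kinase genes Melk (1.11, adjusted p = 0.210) and Mastl (0.88, adjusted p = 0.296) in Tcn2-/- IMQ against control skin. In IMQ against control skin they were those of Hjurp, the chaperone of CENP-A (−0.44, adjusted p = 0.314), and Mastl (0.58, adjusted p = 0.425).

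Genes that act before S phase, or that hold back the cell cycle, had changes of both signs. Of 22 measured genes of G1 cyclins, kinases and pocket proteins, 13, 10 and 7 had a positive change in the same 3 comparisons (medians 0.04, −0.10 and −0.11), and of 21 CDK inhibitors and antiproliferative genes 10, 11 and 13 did (medians −0.02, 0.05 and 0.07). Wee1, the kinase that holds CDK1 inactive, had 49.02, 55.9, 26.8 and 37.2 CPM in Tcn2-/- IMQ skin, 37.9, 43.4, 39.01, 34.03 and 21.8 CPM in IMQ skin, and 69.02, 73.5 and 71.3 CPM in control skin. Both treated groups lay wholly below the controls, control 1 included. By edgeR the adjusted p was 0.217 (log2 change −0.75, SE 0.265) in Tcn2-/- IMQ against control skin and 0.0760 (−1.02, SE 0.250) in IMQ against control skin. Wee1, like Ccnd2 and Gadd45g below, was named for its small p within its list, which favours genes without overlap. The share of all genes without overlap on the lower side was not counted. Ccnd2, cyclin D2, had 175, 288, 82.2 and 108 CPM in Tcn2-/- IMQ skin, 75.5, 209, 116, 99.1 and 106 CPM in IMQ skin, and 381, 263 and 256 CPM in control skin. The IMQ libraries lay below the controls, with a log2 change of −1.31 (SE 0.399, adjusted p = 0.142), while Tcn2-/- IMQ 2 lay among the controls (−0.88, adjusted p = 0.421).

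Gadd45g, a growth arrest gene, had 69.8, 34.4, 16.3 and 16.1 CPM in Tcn2-/- IMQ skin, 14.5, 17.4, 12.2, 15.1 and 16.3 CPM in IMQ skin, and 39.9, 38.7 and 36.2 CPM in control skin. The IMQ libraries lay below the controls without overlap, and of the Tcn2-/- IMQ libraries the 2 with low stress keratins lay near or above the controls. Its log2 change was 1.18 (adjusted p = 0.249) in Tcn2-/- IMQ against IMQ skin and −1.34 (adjusted p = 0.132) in IMQ against control skin. Ccng1, a target of p53, was at 0.69 (SE 0.217, adjusted p = 0.246) in Tcn2-/- IMQ against IMQ skin, and Cdkn1c, the CDK inhibitor p57, at 1.11 (SE 0.399, adjusted p = 0.233) in Tcn2-/- IMQ against control skin. Of the G1 genes, E2f6 was at 0.37 (adjusted p = 0.420) and Rbl2, the pocket protein p130, at −0.45 (adjusted p = 0.476) in Tcn2-/- IMQ against IMQ skin. Tfdp2, a partner of the E2Fs, was at −0.48 (adjusted p = 0.385) in Tcn2-/- IMQ against control skin, and Lin52, a subunit of the DREAM complex, at −0.44 (adjusted p = 0.405) in IMQ against control skin.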

How the data were processed

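The authors deposited raw, whole-number counts per gene for the 12 libraries, as the values themselves show. Oligo(dT)-captured RNA was primed at random and amplified by PCR, per the labels' protocols, so a count can include PCR copies. Reads were placed on GRCm39, per the submitters' processing notes. Aligner, counting program and strand setting are not stated there. Groups and replicate numbers came from the titles.

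The analysis used R 4.3.3 and edgeR 4.0.16. The function filterByExpr kept 18147 genes and TMM factors scaled the libraries. A single quasi-likelihood model (glmQLFit, glmQLFTest, 2-sided) with a mean per group was fitted to all 12 libraries, with Benjamini-Hochberg adjustment over the genes kept. The common biological coefficient of variation was 0.463. CPM uses TMM factors, and log2 CPM a prior count of 2. Simulated counts with known changes served to test the fit. Alternatives were DESeq2 1.42.0, other scalings, filters and covariates, a replicate block and fits without libraries. Promoter windows came from RefSeq (GRCm38.p6).

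The 47 members, the pathway and marker lists, the tests and the alternatives were chosen with earlier results of these data known. Values in every library are given for 14 members fixed by role and, in each comparison, for the 2 S-phase and 2 mitotic members with the smallest p, which made 22 members. Of each pathway list the 2 genes with the smallest p are named.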

Additional observations from a re-analysis of the deposited data

Results flagged for a closer look

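Of 98 checks of a highest or lowest library against the rest of its group (47 members and 2 class means, in the groups of 4 and 5 libraries), 5 found a library farther from the others than Dixon's 95% limit; chance flags about 1 in 20. Among the Tcn2-/- IMQ libraries, replicate 2 was far above the others for Mcm6 (157 CPM, with 76.02 to 89.6 CPM in the other 3) and for Ube2c (133 CPM, with 27.6 to 44.9 CPM in the other 3). In the same group replicate 1 was far below the others for Anln (37.4 CPM, with 79.5 to 85.2 CPM in the other 3), and replicate 4 for E2f1 (16.5 CPM, with 21.5 to 22.4 CPM in the other 3). Among the IMQ libraries, replicate 2 was far above the others for Cdt1 (22.7 CPM, with 14.9 to 16.7 CPM in the other 4). Control 1 could not be checked in this way, because the control group has 3 libraries.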

How the results depend on the processing

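The number of members called stayed 0 in all 3 comparisons with RLE or upper-quartile factors, with no filter on low counts, with at least 1 CPM in 3 libraries, in fits of only the groups compared, and with a muscle score, a hair score or the sex of the library as a covariate. The number was 1 with DESeq2 in IMQ against control skin (E2f7, beside 6.22% of the genes it tested). It was 1 without control 1 and Tcn2-/- IMQ 2 together in IMQ against control skin (E2f8, beside 1.21% of all genes). With each library left out in turn it was 0 to 1 in Tcn2-/- IMQ against control skin, and 1 without control 1 (beside 2.41% of all genes). The groups hold 3 to 5 libraries, and simulated 2-fold changes of genes drawn from all those tested were mostly missed, so a member that was not called may still differ.

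The medians over the members moved with the muscle score and with single libraries. With each library left out in turn, the median of the S-phase members was 0.17 to 0.96 in Tcn2-/- IMQ against control skin and −0.17 to 0.45 in IMQ against control skin, and that of the mitotic members 0.26 to 1.25 and −0.0572 to 0.82. The highest values were those without control 1, and the lowest those without Tcn2-/- IMQ 2 in the first comparison and without control 2 in the second. In Tcn2-/- IMQ against IMQ skin the ranges were 0.10 to 0.53 and 0.12 to 0.61, lowest without Tcn2-/- IMQ 2. In IMQ against control skin the medians were 0.46 and 0.82 without control 1 and Tcn2-/- IMQ 2. With the muscle score the mitotic median was 1.09 in Tcn2-/- IMQ against IMQ skin and −0.35 in IMQ against control skin. That score was lower in every IMQ library than in any library of the other groups, which overlapped in it, and the cause was not tested.

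Log2 changes of single members changed sign under some settings, the muscle score turning also the larger ones of Hmmr (0.68), Rrm1 (0.65), Ccne1 (0.62) and Prc1 (0.52); none of these changes was called. In IMQ against control skin this held with upper-quartile factors for Mcm5 −0.0295, Mki67 −0.00292, Cdc20 −0.11, Mcm3 −0.0847 and Nusap1 −0.0578, with the hair score for Mcm5 −0.0254, Mcm3 −0.0692 and Nusap1 −0.0367, and with sex for Mcm5 −0.00849, E2f1 −0.15, Mcm3 −0.0545 and Nusap1 −0.0562. With the muscle score it held for Mcm5 −0.30, Rrm2 −0.46, Ccne1 −0.0407, Mki67 −0.27, Top2a −0.39, Ccnb1 −0.50, Cdk1 −0.46, Cdc20 −0.56, Mcm3 −0.38, Nusap1 −0.36, Rrm1 −0.0178, Prc1 −0.12 and Hmmr −0.21. Without control 1 and Tcn2-/- IMQ 2 it held for Mcm2 0.52, Pcna 0.0988, Cdc6 0.84, Birc5 0.86, Foxm1 0.57 and Kif23 0.47. With each library left out in turn, the ranges in that comparison were Mcm2 −0.39 to 0.51, Pcna −0.49 to 0.0929, Cdc6 −0.39 to 0.83, Birc5 −0.39 to 0.85, Foxm1 −0.36 to 0.57, Kif23 −0.56 to 0.46, Mcm5 −0.14 to 0.63, Rrm2 −0.17 to 0.91, Mki67 −0.14 to 0.78, Cdk1 −0.17 to 1.13, Cdc20 −0.34 to 1.18, Mcm3 −0.18 to 0.45 and Nusap1 −0.23 to 0.47. In Tcn2-/- IMQ against IMQ skin the sign changed with the muscle score for Ccne1 0.60, E2f1 −0.16 and E2f7 0.0143, and without the 2 libraries for Cdc20 −0.15; the ranges over libraries left out were Ccne1 −0.29 to 0.0773 and Cdc20 −0.15 to 0.58. In Tcn2-/- IMQ against control skin it changed with sex for E2f1 −0.0802, and the ranges were Pcna −0.20 to 0.59 and Cdc20 −0.12 to 1.59.

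Deviations of same-numbered libraries from their group means had correlations of both signs. They correlated at −0.12, 0.42, 0.22 and 0.19 in Tcn2-/- IMQ against IMQ skin, at 0.02, −0.53 and 0.30 in Tcn2-/- IMQ against control skin and at 0.05, −0.11 and 0.26 in IMQ against control skin. These values come from few libraries and cannot settle whether the replicate numbers pair them. With the replicate number as a block 0 members were called in each comparison, and the medians over the S-phase and mitotic members were 0.39 and 0.47, 0.57 and 0.80, and 0.08 and 0.40. With this block the sign changed in IMQ against control skin for Mcm2 0.0284, Cdc6 0.0116, Birc5 0.15 and Foxm1 0.13.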
